A study of Mus musculus with 4 samples.

Results

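The genes of the eukaryotic translation initiation factors were examined for Eya1 occupancy in the embryonic mouse kidney. They were taken as the protein-coding genes of GENCODE release M21 whose symbols begin with Eif and a digit from 1 to 6, which gave 55 of 21951 genes. Chromatin immunoprecipitation followed by sequencing (ChIP-seq) had been carried out on E13.5 kidneys of embryos with an Eya1 HA-FLAG knockin allele, in which the endogenous Eya1 protein carries the tags, and the chromatin was pulled down with anti-FLAG M2 beads. Each assay pooled 80 whole kidneys, so nephron progenitors, ureteric bud and stroma were mixed and a peak cannot be assigned to a cell type. The study held 4 samples, of which 2 were Eya1 ChIP replicates and the others an input and an IgG control. One peak list per Eya1 replicate was analysed, and the controls were not analysed here.

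Eya1 is a phosphatase and transcriptional coactivator without DNA-binding activity of its own, and it is needed to keep nephron progenitors in the kidney. The initiation factors load the small ribosomal subunit with initiator tRNA, bring it to the capped end of an mRNA, scan to the start codon and join the large subunit. The eIF2 kinases and the eIF4E-binding proteins are the best known brakes on this process, since the former act on the delivery of initiator tRNA and the latter on recognition of the cap.

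An Eya1 peak lay within 1 kb of an annotated transcription start site (TSS) of 26 of the 55 initiation factor genes (47.3%, exact 95% CI 33.7 to 61.2%), compared with 23.5% of all protein-coding genes. Replicate 1 had a peak at 23 of them (41.8%, against 20.2% of all genes) and replicate 2 at 21 (38.2%, against 14.7%). At 18 genes a replicate 1 peak and a replicate 2 peak overlapped by 1 bp or more, which is termed a shared peak below (32.7%, 95% CI 20.7 to 46.7%, against 11.3%). Initiation factor promoters were, however, richer in CpG dinucleotides than most. When other protein-coding genes were weighted to the CpG content of the members, 45.9% of them had a peak of either replicate and 24% a shared peak, and both values lay within the intervals of the members. The intervals cover counting over genes in these lists and no variation between samples. Genes of 1 list are not replicates, so no test was made.

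The peak lists differed far more in width than in number. Near protein-coding TSSs, replicate 1 had 3989 peaks and replicate 2 had 3473. Widths over the whole replicate 1 list ran from 168 to 5380 bp with a median of 1069 bp, and those of replicate 2 from 117 to 2699 bp with a median of 188 bp. Neither list carried read counts or scores, so the depth behind a peak is unknown, and the absence of a peak says only that none was listed. As a check of the tissue, nephron progenitor genes were looked up. Among them, Six2, Sall1 and Eya1 had a peak near a TSS in replicate 1 alone, whereas Osr1, Wt1, Pax2, Cited1 and Meox1 had none in either list.

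The narrow replicate 2 intervals show most closely which bases were listed at these genes. Those of 6 genes are given as examples that hold no UTR sequence, from upstream of the gene to the first intron. The intervals of Eif3c and Eif4ebp2 and the upstream one of Eif5 also hold no UTR sequence and are not printed. The printed sequences are written 5′ to 3′ on the strand of the gene, from GRCm38 (mm10). Capitals mark matches on either strand to GGGCGG (the SP/KLF box, CCGCCC when reversed), CCAAT (the NFY box, ATTGG when reversed) or AGGCCT (the ZFX element).
Eif3i: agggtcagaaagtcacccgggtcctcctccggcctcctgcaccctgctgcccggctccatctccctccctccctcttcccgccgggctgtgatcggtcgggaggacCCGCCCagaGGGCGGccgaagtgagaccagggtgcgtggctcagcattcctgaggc
Eif5b: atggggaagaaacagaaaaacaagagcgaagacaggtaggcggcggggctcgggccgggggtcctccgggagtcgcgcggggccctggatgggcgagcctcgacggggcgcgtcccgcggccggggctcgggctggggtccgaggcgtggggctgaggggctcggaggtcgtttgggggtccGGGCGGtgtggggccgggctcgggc
Eif4b: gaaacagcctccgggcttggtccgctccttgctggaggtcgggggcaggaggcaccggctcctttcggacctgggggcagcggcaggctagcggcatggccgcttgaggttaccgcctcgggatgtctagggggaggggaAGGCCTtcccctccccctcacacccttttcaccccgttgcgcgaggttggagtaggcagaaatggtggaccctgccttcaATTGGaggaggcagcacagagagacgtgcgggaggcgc
Eif4a2: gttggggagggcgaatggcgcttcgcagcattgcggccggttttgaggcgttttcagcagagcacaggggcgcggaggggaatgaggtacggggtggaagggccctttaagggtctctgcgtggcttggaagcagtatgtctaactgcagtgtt
Eif3b: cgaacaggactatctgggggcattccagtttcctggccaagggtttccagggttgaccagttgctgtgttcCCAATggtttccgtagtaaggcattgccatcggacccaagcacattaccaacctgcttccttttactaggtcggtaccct
Eif3e: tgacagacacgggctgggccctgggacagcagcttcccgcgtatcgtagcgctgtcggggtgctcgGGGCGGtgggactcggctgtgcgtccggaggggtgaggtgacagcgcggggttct

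The Eif3i interval (chr4:129600811-129600972, 162 bp, minus strand) lay wholly outside the gene, upstream of its TSS, and held a CCGCCC and a GGGCGG separated by a short spacer. That of Eif5b (chr1:37998290-37998496, 207 bp, plus strand) began at the start codon and ran into the first intron, with 26 CpG dinucleotides and 75.4% G and C. The intervals of Eif4b (chr15:102074002-102074259, 258 bp, plus strand), Eif4a2 (chr16:23108423-23108576, 154 bp, plus strand), Eif3b (chr5:140419964-140420114, 151 bp, plus strand) and Eif3e (chr15:43282368-43282488, 121 bp, minus strand) lay in introns. These ranged from 4 CpG dinucleotides and 52.3% G and C at Eif3b to 16 and 66.3% at Eif4b, with the highest G and C content at Eif3e (70.2%). No match to these motifs was found in the Eif4a2 interval, nor in the unprinted ones of Eif3c, Eif4ebp2 and Eif5. In 200-bp windows centred on replicate 2 peaks, GGGCGG was present in 10 of 27 at members (37%) and 53.6% of those near all protein-coding TSSs. AGGCCT was present in 6 of 27 (22.2%, against 14.5%) and CCAAT in 5 of 27 (18.5%, against 8.28%). In these replicate 2 windows GGGCGG was thus less frequent, and AGGCCT and CCAAT more frequent, at members. Replicate 1 windows held GGGCGG in 11 of 23 (47.8%, against 52.6%), AGGCCT in 4 (17.4%, against 12.4%) and CCAAT in 5 (21.7%, against 10.9%). These shares were not matched for CpG content, and the differences were not tested.

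Occupancy is described by the role of each factor, from start codon selection to subunit joining. The plot of shares by factor group sets each group beside other genes of the same CpG content. Groups hold between 1 and 14 genes, and the exact 95% interval of every group contained the CpG-matched value. For groups of 1 to 3 genes it would do so at any count, so containment says nothing about them. For eIF4A, eIF4B and eIF4H, even 5 of 5 genes gave a lower bound of 47.8%, so no excess in peaks of either replicate could be seen.

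**Figure D1:**
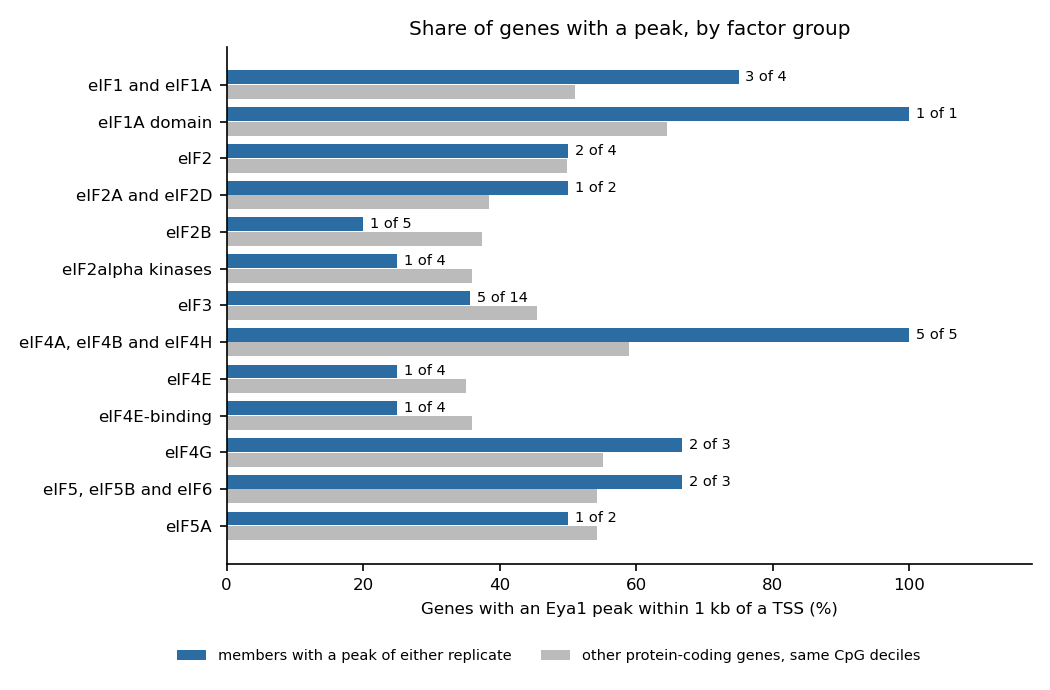
Share of genes with an Eya1 peak of either replicate within 1 kb of a TSS (x axis, percent) for each factor group (y axis). Blue bars are the initiation factor genes, labelled with their counts, and grey bars are other protein-coding genes weighted to the same CpG deciles. The blue bar reaches 100% for eIF4A, eIF4B and eIF4H (5 of 5 genes, grey 58.9%) and 20% for eIF2B (1 of 5 genes, grey 37.4%).

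The small factors eIF1 and eIF1A hold the ribosome in a scanning state and control the fidelity of start codon choice. Peaks were listed at 3 of these 4 genes, against 51.1% of CpG-matched genes. Eif1 had a replicate 1 peak of 817 bp (chr11:100319791-100320607) and a replicate 2 peak of 139 bp (chr11:100320106-100320244), both over a TSS. Its paralog Eif1b had a replicate 2 peak alone (315 bp). Eif1a, which encodes eIF1A, had a replicate 1 peak of 1846 bp (chr18:46596776-46598621) and a replicate 2 peak of 121 bp (chr18:46597337-46597457), and a TSS of Tmed7 lay within 1 kb of both. No peak was listed at Eif1ax, the X-linked paralog, and the nearest lay 1773 kb from its TSSs, the farthest of any member. Eif1ad, whose product contains an eIF1A-like domain, had a replicate 1 peak of 1396 bp that also lay within 1 kb of a TSS of Banf1.

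eIF2 is the GTPase that carries initiator tRNA to the ribosome. Among its 4 genes, peaks were found at Eif2s1 (the alpha subunit, which the stress kinases phosphorylate) and Eif2s2 (the beta subunit), and CpG-matched genes had a peak in 49.9% of cases. Eif2s2 had a shared peak, with 1623 bp in replicate 1 (chr2:154891343-154892965) and 363 bp in replicate 2 (chr2:154892360-154892722). The Eif2s1 peak was listed in replicate 1 alone, was the narrowest member peak of that list (711 bp), and had a TSS of Atp6v1d within 1 kb. The gamma subunit, which binds GTP and the tRNA, is encoded on both sex chromosomes, and neither Eif2s3x nor Eif2s3y had a peak. No peak was listed on chromosome Y, and on X and Y together only 24 of 1131 protein-coding genes had one (2.12%, against 24.6% on autosomes). Of the alternative initiator tRNA carriers, Eif2a had a replicate 1 peak of 1604 bp with a TSS of Serp1 within 1 kb, and Eif2d had none.

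The eIF2B complex recharges eIF2 with GTP and is the point at which phosphorylated eIF2 blocks initiation. A peak was found at 1 of its 5 genes, against 37.4% of CpG-matched genes. Eif2b4, the delta subunit, had a shared peak of 1743 bp in replicate 1 (chr5:31192473-31194215) and 386 bp in replicate 2 (chr5:31193310-31193695), which lay over a TSS and within 1 kb of a TSS of Snx17. The genes of the alpha, beta, gamma and epsilon subunits (Eif2b1, Eif2b2, Eif2b3 and Eif2b5) had none. Eif2b5, which encodes the catalytic subunit, was the member without a peak that came closest to one, at 10.7 kb. No member therefore lay just outside the 1-kb limit, and the peak nearest to the limit on the inside was that of Eif3b in replicate 2, which began 636 bp from the nearest TSS.

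Phosphorylation of eIF2 is carried out by 4 kinases, each of which senses a different stress. A peak was listed at 1 of these 4 genes, against 35.9% of CpG-matched genes. Eif2ak4, which encodes the amino acid sensor GCN2, had a shared peak of 860 bp in replicate 1 (chr2:118388401-118389260) and 135 bp in replicate 2 (chr2:118388692-118388826). None was listed at Eif2ak1 (HRI, which responds to low heme), Eif2ak2 (PKR, which responds to double-stranded RNA) or Eif2ak3 (PERK, which responds to unfolded protein in the endoplasmic reticulum). The CpG ratio of the promoter, defined as the observed over the expected number of CpG dinucleotides, did not order these genes by occupancy. It was 0.663 for Eif2ak4, compared with 0.981 for Eif2ak3, 0.906 for Eif2ak1 and 0.456 for Eif2ak2.

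eIF3 is the large scaffold that binds the small subunit and links it to the mRNA-bound factors. Peaks were present at 5 of its 14 genes, below the 45.4% of CpG-matched genes but with an interval that contained this value (35.7%, 95% CI 12.8 to 64.9%). Shared peaks were found at 4 of them. Eif3a, the largest subunit, had 1300 bp in replicate 1 (chr19:60789724-60791023) and 417 bp in replicate 2 (chr19:60790223-60790639). Eif3b had 1028 bp (chr5:140419238-140420265) and the intronic 151 bp given above. The Eif3c peaks were of 749 bp (chr7:126565693-126566441) and 130 bp (chr7:126566029-126566158). In the group of 14 genes, 28.6% had a shared peak (95% CI 8.39 to 58.1%), against 22.6% of CpG-matched genes. Eif3i had 1536 bp (chr4:129600135-129601670) and the upstream 162 bp given above, with Tmem234 also starting within 1 kb. Eif3e was listed in replicate 2 alone. The subunit genes Eif3d, Eif3f, Eif3g, Eif3h, Eif3k, Eif3l and Eif3m had no peak, nor did Eif3j1 and Eif3j2, which encode the loosely attached j subunit.

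The RNA helicase eIF4A unwinds the 5′ end of the mRNA, and eIF4B and eIF4H stimulate it. All 5 genes of this group had a peak (95% CI 47.8 to 100%, CpG-matched genes 58.9%), in each case in replicate 1, and 4 had a shared peak (80%, 95% CI 28.4 to 99.5%, CpG-matched genes 33.2%). The lower bound of each interval lay below the matched value. Eif4a1 had 1624 bp in replicate 1 (chr11:69670871-69672494) and 879 bp in replicate 2 (chr11:69671380-69672258). Its close paralog Eif4a2 had 1871 bp (chr16:23107188-23109058), inside which replicate 2 listed 512 bp (chr16:23107785-23108296) and the intronic 154 bp. The widest peaks of both helicase paralogs exceeded the median of promoter peaks in each list (1100 bp for replicate 1, 199 bp for replicate 2). Eif4b had 1063 bp (chr15:102073761-102074823) and the intronic 258 bp, and Eif4h 1068 bp (chr5:134638339-134639406) and 759 bp (chr5:134638676-134639434). Eif4a3, a related helicase that works in the exon junction complex, had a replicate 1 peak alone (1626 bp).

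eIF4E binds the cap, and 1 of its 4 genes had a peak, against 35% of CpG-matched genes. None was listed at Eif4e itself, Eif4e2 (a cap-binding repressor also known as 4EHP) or Eif4e1b (an oocyte form). Eif4e3 had a replicate 1 peak of 863 bp, with the overlapping gene model Gm20696 starting within 1 kb. No shared peak was found in this group, where CpG-matched genes had 18.4%. Promoter CpG content was high at Eif4e (ratio 0.984) and Eif4e2 (0.896) and lowest of all members at Eif4e1b (0.169). Of the proteins that bind eIF4E, the inhibitor gene Eif4ebp2 had a shared peak of 1374 bp (chr10:61451700-61453073) and 135 bp (chr10:61452384-61452518). No peak was listed at the inhibitor genes Eif4ebp1 and Eif4ebp3 or at Eif4enif1, which encodes the eIF4E transporter. Of these 4 eIF4E-binding genes, 1 thus had a peak, against 35.9% of CpG-matched genes.

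The eIF4G scaffold holds eIF4E and eIF4A together. Eif4g2 encodes a shorter relative without the eIF4E-binding part that serves cap-independent initiation, and it had the widest member peak in both lists. Replicate 1 listed 2700 bp (chr7:111080925-111083624), wider than 97.7% of the promoter peaks of that list, and inside it replicate 2 listed 952 bp (chr7:111081957-111082908), wider than 99.2%, and 117 bp (chr7:111081788-111081904). Eif4g1 had peaks of 552 and 127 bp in replicate 2 alone, and its paralog Eif4g3 had none. A peak was thus listed at 2 of the 3 eIF4G genes, against 55.2% of CpG-matched genes.

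The last steps are GTP hydrolysis on eIF2, which Eif5 stimulates, and joining of the large subunit, which Eif5b drives and Eif6 restrains. Eif5 had a replicate 1 peak of 1991 bp (chr12:111537366-111539356), inside which replicate 2 listed 186 bp outside the gene model (chr12:111537480-111537665) and 197 bp over a TSS (chr12:111538931-111539127). Eif5b had 1366 bp (chr1:37997606-37998971) and the 207 bp given above, with a TSS of Txndc9 within 1 kb. No peak was found at Eif6, so 2 of these 3 genes had one, against 54.3% of CpG-matched genes. Eif5a, a hypusine-containing factor now known mainly for its part in elongation and termination, had 1400 bp in replicate 1 (chr11:69920063-69921462) and 3 replicate 2 peaks of 222, 137 and 185 bp (chr11:69920559-69920780, chr11:69920872-69921008 and chr11:69921074-69921258). Its paralog Eif5a2 had none, and the nearest peak lay 1069832 bp away.

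**Figure D2:**
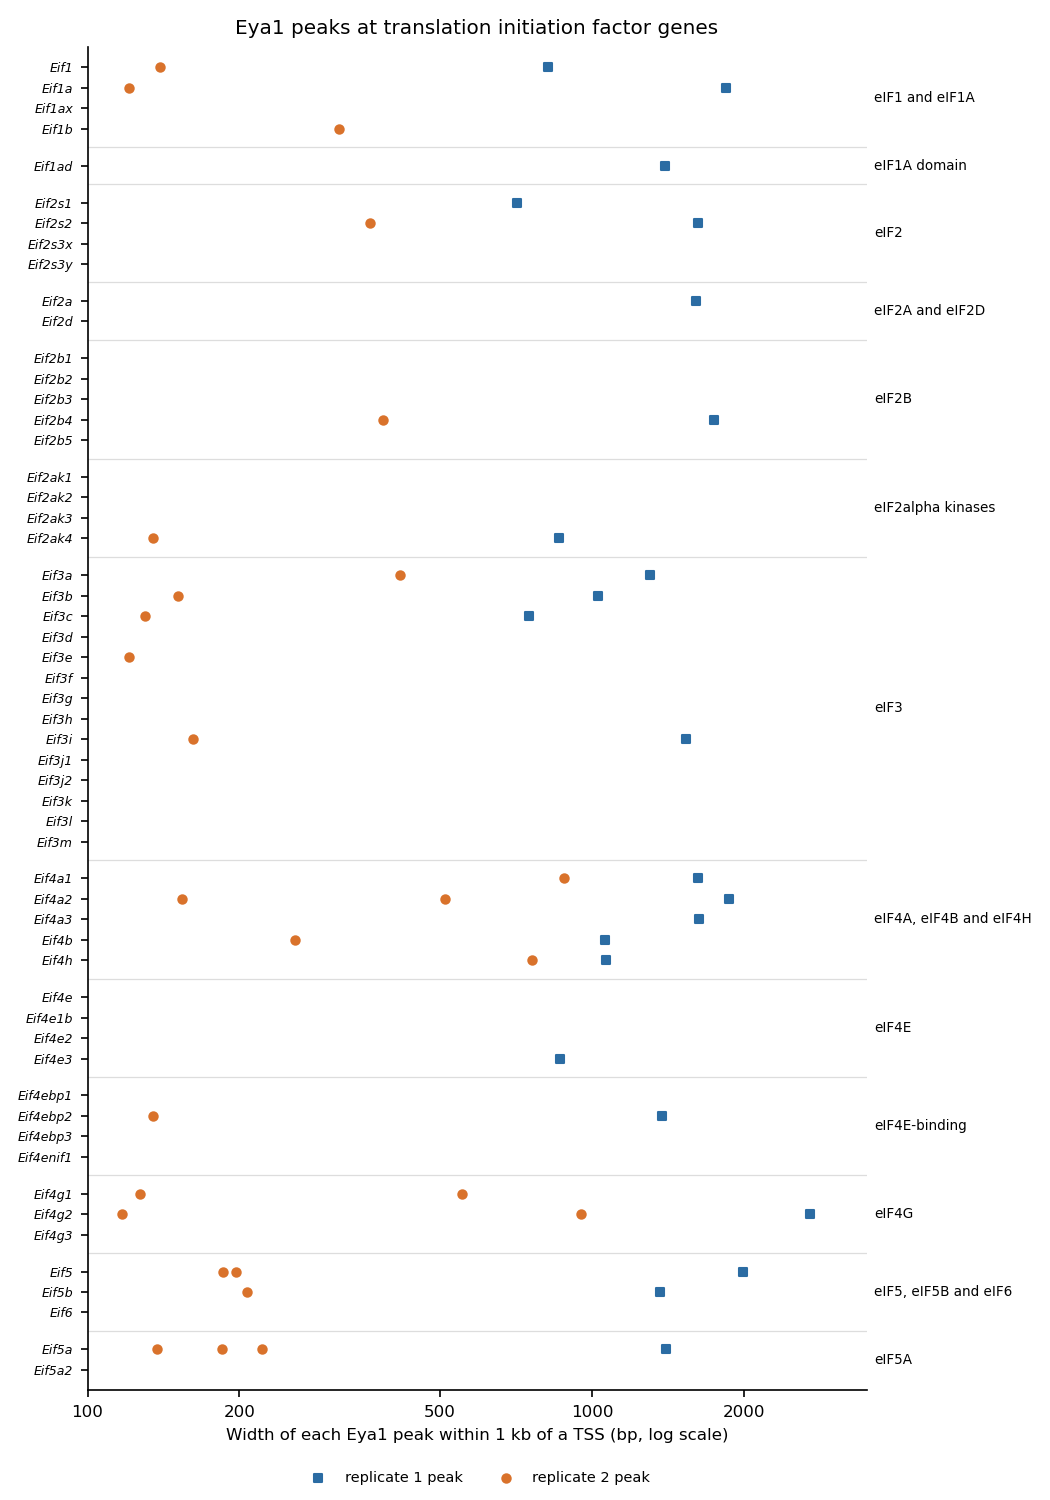
Width of each Eya1 peak within 1 kb of a TSS (x axis, bp, log scale) for the 55 initiation factor genes, grouped by factor (y axis). Squares are replicate 1 peaks and circles replicate 2 peaks. A row without a symbol has no peak (29 genes). Replicate 1 peaks range from 711 to 2700 bp and replicate 2 peaks from 117 to 952 bp.

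Peaks of replicate 1 at initiation factor genes had a median width of 1396 bp (n = 23 peaks), compared with 1100 bp for all of that replicate's peaks near protein-coding TSSs and 1200 bp for those at genes with a shared peak. The replicate 2 median was 186 bp (n = 27 peaks), compared with 199 and 216 bp. The members were thus on the wide side in replicate 1, where 15 of 23 peaks exceeded the median of promoter peaks, and not in replicate 2, where 12 of 27 did. Widths were compared without matching for CpG content. Helicase group peaks had medians of 1624 bp (1063 to 1871 bp, n = 5) in replicate 1 and 512 bp (154 to 879 bp, n = 5) in replicate 2. Those of eIF3 genes were narrower in both lists, with medians of 1164 bp (749 to 1536 bp, n = 4) and 151 bp (121 to 417 bp, n = 5). The ranges of these groups overlapped in each list.

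At the 18 genes with a shared peak there were 23 pairs of overlapping intervals. The replicate 2 interval lay wholly inside the replicate 1 interval in 22 of them, and at Eif4h 96.3% of it did. The replicate 1 peak was 6.37 times as wide on median, from 1.41 times at Eif4h to 23.1 times for the narrower Eif4g2 interval. Pairs were chosen for overlap, and over the whole lists the median widths were 1069 and 188 bp. The containment and this ratio are therefore no measure of agreement between replicates at these genes. Values over all genes with a shared peak are not given. Midpoints were 158 bp apart on median, from 11 bp at Eif3i to 788 bp at Eif5. Several replicate 2 intervals shared a single replicate 1 peak at Eif4a2, Eif4g2, Eif5 and Eif5a.

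Positions were then measured from the coding TSS nearest to the midpoint of the replicate 1 peak. By this choice of TSS the replicate 1 peak tends to lie over it, and it did so at all 18 genes, with a median reach of 416.5 bp upstream and 951.5 bp downstream. Of the 23 replicate 2 intervals, 11 lay wholly downstream of this same TSS, 6 wholly upstream and 6 over it. Since the TSS was chosen from replicate 1, the lists are not compared on it. When any annotated TSS was counted, 11 of the 23 covered one, at Eif1, Eif2b4, Eif4a1, Eif4a2, Eif4g2, Eif4h, Eif5 and Eif5a. Over all members, 12 of 27 replicate 2 peaks covered a TSS (44.4%, against 29.1% of gene and peak pairs over all protein-coding genes). For replicate 1 it was 23 of 23 (100%, against 88.7%). The 12 came from 9 genes, with more than 1 each at Eif5a (9 annotated TSSs) and Eif4g2 (14). By gene, 9 members of the 21 with a replicate 2 peak had one over a TSS. Over all genes, 4.94% had one over a TSS and 14.7% had a replicate 2 peak. Relative to the reference TSS, all replicate 2 intervals were downstream at Eif2s2, Eif3a, Eif3b, Eif3c, Eif4a1, Eif4b, Eif4ebp2 and Eif5b. They were all upstream of it at Eif1a, Eif2ak4 and Eif3i. The Eif1a and Eif3i intervals lay outside the gene, but that of Eif2ak4 lay inside it, in coding and UTR sequence. The Eif5a intervals upstream of its reference TSS covered other annotated TSSs. In protein-coding genes in general, 75.6% of pairs of a gene and a replicate 2 peak had the midpoint downstream of the nearest coding TSS. At the members 16 of 27 did (59.3%). For replicate 1 the values were 73.2% and 16 of 23 (69.6%).

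**Figure D3:**
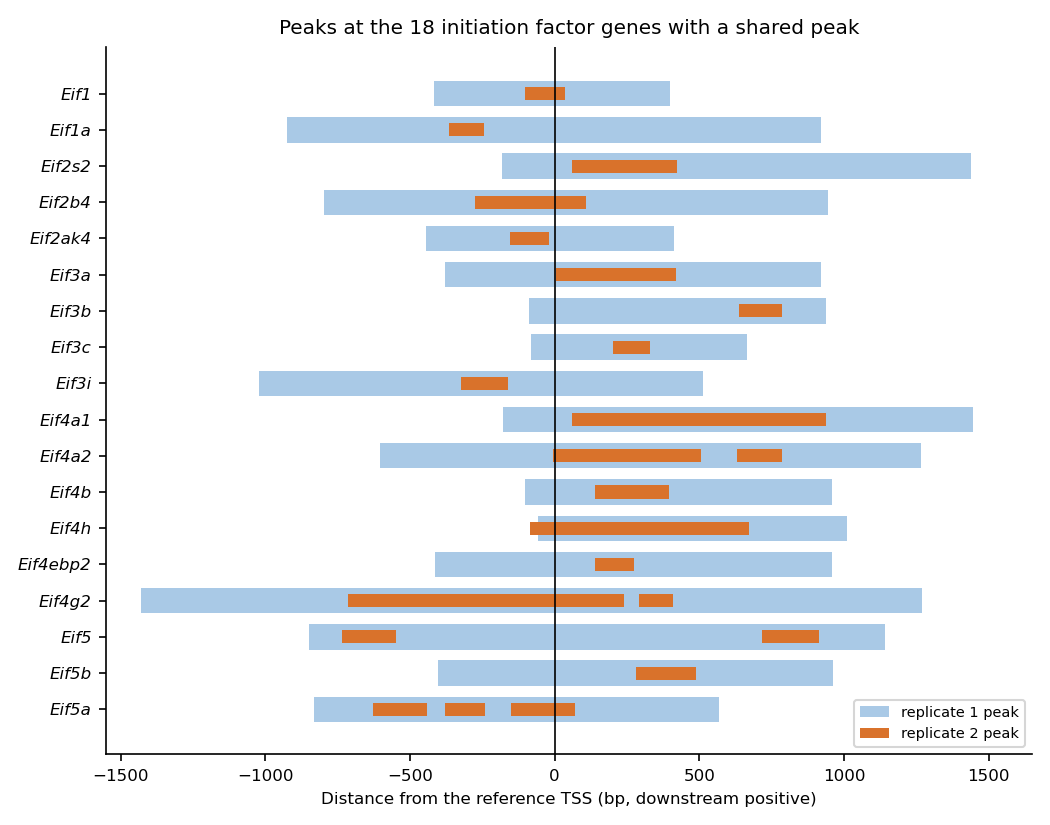
Position of the Eya1 peaks at the 18 initiation factor genes with a shared peak, as distance from the reference TSS (x axis, bp, downstream positive, vertical line at 0). Light blue bars are replicate 1 peaks and orange bars replicate 2 peaks. Each blue bar crosses the TSS, while 11 of the 23 orange bars lie wholly downstream of it.

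In terms of annotation, all 23 replicate 1 peaks at members held UTR sequence, 19 held coding sequence and 20 reached beyond the gene model. Of the 27 replicate 2 peaks, 17 held intron sequence, 16 UTR and 10 coding sequence, and 4 reached beyond the gene. No peak lay in a member gene beyond 1 kb of its TSSs. A TSS of another protein-coding gene lay within 1 kb of the peak at 8 of the 26 genes (Eif1a, Eif1ad, Eif2a, Eif2b4, Eif2s1, Eif3i, Eif4e3 and Eif5b), and there the peak cannot be assigned to either gene. For the genes without a peak, of which there were 29, the distance to the nearest one was measured. Over the 28 of them on chromosomes with peaks, the nearest one was at 10.7 kb to 1773 kb, with a median of 71.1 kb. Neither these distances nor the counts of annotation and of neighbouring TSSs above were set against other genes. A further 11 genes with matching symbols are not protein-coding and had no peak, which was not set against other non-coding genes.

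Occupancy varied with CpG content over all protein-coding genes. The CpG ratio was taken over 1000 bp centred on each TSS, with the highest value kept per gene, and all protein-coding genes were divided into deciles. The median ratio was 0.863 for the members and 0.625 for other genes. Among other genes, the share with a peak climbed from 0.0455% in the lowest decile to 64.5% in the highest. The members had 13 of 18 with a peak in the highest decile and 8 of 15 in the next, where other genes had 50.6%. In deciles 9 and 10 together, 21 of 33 members had a peak (63.6%, CpG-matched genes 58.2%) and 15 a shared peak (45.5%, CpG-matched genes 32.6%). In the other deciles the values were 5 of 22 (22.7%, CpG-matched genes 27.6%) and 3 of 22 (13.6%, CpG-matched genes 11.2%).

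**Figure D4:**
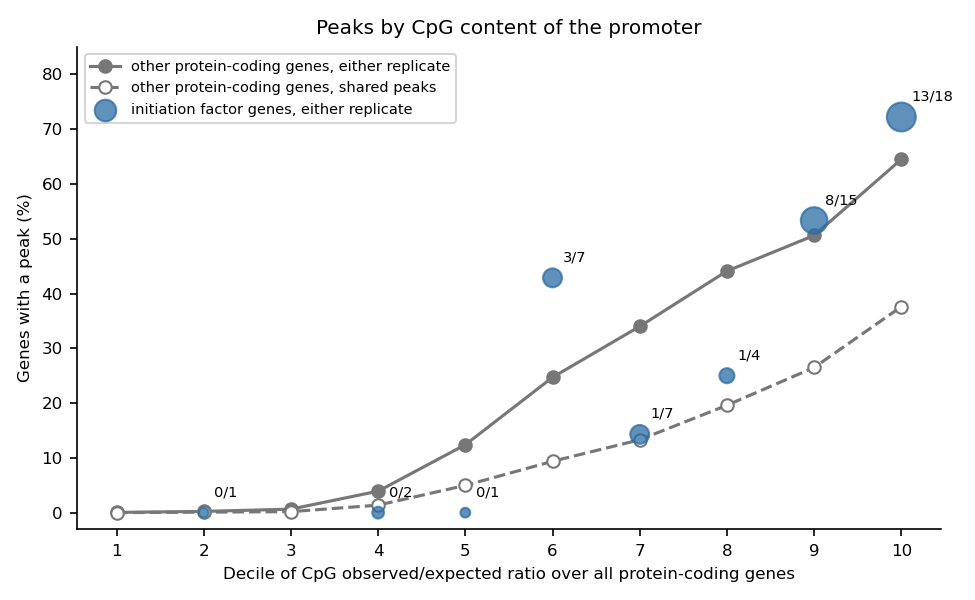
Share of genes with an Eya1 peak within 1 kb of a TSS (y axis, percent) by decile of the promoter CpG ratio (x axis). Lines are other protein-coding genes with a peak of either replicate (filled) or a shared peak (open), and blue circles are the initiation factor genes, sized by their number and labelled with counts. The filled line runs from 0.0455% to 64.5%, and the circles hold 13 of 18 genes in decile 10 and 8 of 15 in decile 9.

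By state, the median CpG ratio was 0.915 for the 18 genes with a shared peak (0.663 to 1.11), 0.953 for the 5 listed in replicate 1 alone, 0.87 for the 3 in replicate 2 alone and 0.786 for the 29 without a peak (0.169 to 0.984). The ranges overlapped widely. In deciles 9 and 10, 12 members had no peak (Eif2ak1, Eif2ak3, Eif2b1, Eif2s3y, Eif3d, Eif3f, Eif3j1, Eif3l, Eif4e, Eif4e2, Eif4enif1 and Eif4g3). Conversely, Eif2ak4, Eif2b4, Eif3e, Eif3i and Eif4e3 had a peak outside them. Of the member genes with a peak, 78.3% of those in replicate 1 and 85.7% of those in replicate 2 had a shared peak, compared with 55.9% and 76.9% over all genes. These all-gene values were not matched for CpG content. Among CpG-matched genes, 24% had a shared peak, 40% a replicate 1 peak and 30.2% a replicate 2 peak. With sex chromosomes left out, 26 of 52 members had a peak (50%, CpG-matched autosomal genes 47.2%).

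Promoter sequence was compared through RefSeq windows from 250 bases before to 50 after the start (GRCm38.p6), which were given for 43 of the 55 members and 16388 genes in all. Motifs were searched on both strands, and a match is a property of the sequence and not a measure of binding. GGGCGG was present at 33 members (76.7%, against 51.3% of all genes and 76.1% of CpG-matched genes), at 19 of 21 with a peak and 14 of 22 without. The ETS element CCGGAAG was found at 16 members (37.2%, against 13.4% and 20.1%), at 6 of 21 with a peak and 10 of 22 without. The E-box CACGTG, the site recognised by Myc and related factors, was found at 10 members (23.3%, against 9.21% and 12.6%), at 6 of 21 with a peak and 4 of 22 without. ETS and E-box matches were therefore more frequent at members than at CpG-matched genes but were split between members with and without a peak, and these differences were not tested.

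For the other elements, CpG-matched values are given after those of all genes. CCAAT was found in 34.9% of members (41.9% and 40.7%), TATAAA in 9.3% (14.3% and 7.74%) and AGGCCT in 9.3% (11.5% and 11.6%). The NRF1 element GCATGCGC was found in 6.98% (4.13% and 7.04%) and the YY1 element AAGATGGCG in 4.65% (2.26% and 3.77%). Apart from CCAAT, each rested on 4 members or fewer, and members lay above all genes but not above CpG-matched genes for NRF1, and the reverse for TATAAA. The CRE TGACGTCA (2.65% and 4.13%) and the ATF4 element TTGCATCA (0.989% and 0.514%) were not found at any member. RE1, the element of the repressor REST, was found with up to 2 mismatches at Eif2b1, Eif3c and Eif3k (6.98%, against 3.61% and 3.4%). In the 200-bp windows on peak midpoints, RE1 was found in none of the 23 replicate 1 and 27 replicate 2 windows at members, compared with 3.13% and 6% of all promoter peaks.

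The CACGTG matches comprised 14 sites in 10 genes, of which 12 lay upstream of the RefSeq start. Of the 14, 5 were in genes with a replicate 1 peak, and the E-box itself lay inside that peak for 3 of these, 1 at Eif3a and 2 at Eif5a. Of the 8 in genes with a replicate 2 peak, none lay inside it. No such share was taken over all genes, and sites outside the RefSeq windows were not listed. The windows on replicate 2 midpoints did hold CACGTG at Eif3e and Eif4g1 (2 of 27, 7.41%, against 2.45% of all promoter peaks). The 3 sites of the RefSeq windows that lay inside a peak are given with 10 bases on either side. They are on the strand of the gene, E-box in capitals, together with both sites of Eif4e, which had no peak.
Eif3a: gcgagggaatCACGTGgttccttcct
Eif5a: gctgcgcggcCACGTGaggtggggga
Eif5a: ggggcggggtCACGTGtgtgcgtcat
Eif4e: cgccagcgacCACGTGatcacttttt
Eif4e: acacgtccgtCACGTGggcaggagcc

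In GRCm38 the Eif3a site was at chr19:60790656-60790681 (minus strand), just downstream of the start, and the Eif5a sites were at chr11:69920793-69920818, between 2 of its replicate 2 intervals, and chr11:69921445-69921470 (minus strand), where the peak ended within the bases next to the E-box. The Eif4e sites were at chr3:138527030-138527055 and chr3:138527194-138527219 (plus strand), and the nearest Eya1 peak was 36.7 kb away. An E-box in the promoter was thus present with and without a listed peak.

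Other parts of the translation machinery were set beside the initiation factors. Among 22 genes that regulate initiation, 15 had a peak (68.2%, 95% CI 45.1 to 86.1%, CpG-matched genes 46.1%) and 11 a shared peak (50%, 95% CI 28.2 to 71.8%, CpG-matched genes 23.3%). The shared ones were the poly(A)-binding protein gene Pabpc1 and its partners Paip1 and Paip2, the mTORC1 arm genes Rptor, Rps6kb1, Larp1 and Pdcd4, the eIF2 phosphatase genes Ppp1ca, Ppp1cb and Ppp1r15b, and the eIF4E kinase gene Mknk2. Of 14 elongation and termination genes, 11 had a peak (78.6%, 95% CI 49.2 to 95.3%, CpG-matched genes 45.4%) and 6 a shared peak, at Abce1, Eef1a1, Eef1g, Eef2, Etf1 and Gspt1 (42.9%, 95% CI 17.7 to 71.1%, CpG-matched genes 22.9%). Whether the interval contained the CpG-matched value depended on the measure, since for the regulators it did so for either replicate and not for shared peaks, and for elongation and termination the reverse.

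Cytosolic ribosomal protein genes had a peak at 53 of 78 (67.9%, 95% CI 56.4 to 78.1%, CpG-matched genes 46.5%) and a shared peak at 30 (38.5%, 95% CI 27.7 to 50.2%, CpG-matched genes 23.3%). Cytosolic aminoacyl-tRNA synthetase genes had one at 7 of 20 (35%, 95% CI 15.4 to 59.2%, CpG-matched genes 35.3%). Their shared peaks were at Dars, Eprs and Yars (15%, CpG-matched genes 16.3%). For peaks of either replicate and for shared peaks, the lower bound for ribosomal protein genes was above their CpG-matched value. This was not the case for the synthetases on either measure. The mitochondrial initiation factor genes Mtif2 and Mtif3 had none, against 29.3% of CpG-matched genes. The share of initiation factor genes with a peak (47.3%) thus lay between those of the synthetases and the ribosomal proteins. The intervals of the initiation factors and the ribosomal proteins overlapped, and the difference between the lists was not tested.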

How the data were processed

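The authors deposited 1 peak list per Eya1 ChIP replicate, with the chromosome, start and end of each peak and no count, score or p-value. These positions (unit: other) were used as deposited and printed 1-based. The study's methods name Bowtie and MACS against input or IgG at various cutoffs on mm10, whereas the submitters' processing notes name HISAT2. The cutoff behind each list is not given in the sources used here. GENCODE M21 supplied the TSSs of every transcript. A gene had a peak when an interval lay within 1 kb of a TSS. CpG-matched percentages are the mean over members of the share of other protein-coding genes with a peak in the member's CpG decile. Shares have exact Clopper-Pearson 95% intervals. The files give no replicated comparison, so no test was run, and widths and counts are descriptions.

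Members and lists were chosen with earlier results of these data known. Every member is named by its state, with positions for those with a shared peak and paralogs side by side. From the comparison lists the genes with a shared peak are named, except for the ribosomal proteins. The alternatives varied the distance to a TSS, the TSS set, peak width, overlap, CpG measure and replicate. Weighting by 5 CpG classes crossed with the number of TSSs was added after the data were seen. Calculations were run in Python 3.11.15 (pandas 2.3.3, pysam 0.24.0 for sequence, scipy 1.17.1 for intervals), were tested on simulated data, and were checked with bedtools 2.31.1, which found the same 23 and 21 members.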

Additional observations from a re-analysis of the deposited data

How the results depend on the processing

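Of 40 alternatives to 7 results, 32 stayed within the limits set for a like value and 8 did not. With peaks of at least their own list's median width, replicate 1 had a peak at 15 members (11.1% of all genes), replicate 2 at 13 (8.8%) and both, overlapping, at 9 (5.22%). When a peak had to overlap the TSS base itself, replicate 2 had 9 members (4.94%) and 8 had a shared peak (4.08%), and the median width of replicate 2 peaks was 304 bp (n = 12). Coverage of 50% of both peaks left 2 shared members, Eif4a1 and Eif4h (0.82% of all genes). Leaving out 1 replicate gave 21 to 23 members with a peak and a CpG-matched percentage of 30.2 to 40%, the lower value without replicate 1 against 38.2% of members. Under the other CpG measures and TSS sets it was 41.6 to 47.2%, including 45.4% with 5 CpG classes crossed with the number of TSSs. A shared peak needs both lists, so it has no value without 1 of them. No paired analysis was possible because a single group has lists here, and with depth unknown the absence of a peak cannot be weighed.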
